A study of Mus musculus with 6 samples.

Results

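The enzymes and the chaperone that hydroxylate, fold and crosslink collagen were examined in MEFs, fibroblasts cultured from mouse embryos, that carried different forms of NELF-B. NELF-B belongs to a protein complex that pauses RNA polymerase II shortly after transcription has begun. The members were the rows of the deposited intensity table whose symbol is Lox, Loxl1, Loxl2, Loxl3, P4ha1, P4ha2, Plod1, Plod2, Plod3 or Serpinh1. Of these 10 genes, 9 had a row, with 1 probe each among the 25697 probes of the table, and no row carried Loxl2. The rule went by symbol and used no measured value, though earlier results of these data were known when the genes were chosen. The ATG cells carried truncated NELF-B, written ATG-NELF-B in the sample titles (3 arrays), and the FL cells carried full-length NELF-B (3 arrays). The titles do not say what ATG stands for. Cells of both groups had the C57BL/6 background and were grown in DMEM with 10% fetal bovine serum to 50% confluence. The labels do not say how the truncated form was introduced, whether a group was a single line, or whether the 3 samples of a group were separate cultures. The p-values therefore rest on a spread between samples that could be technical only.

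Collagen chains are modified in the endoplasmic reticulum before they fold. Prolyl 4-hydroxylase, whose catalytic alpha subunits are P4ha1 and P4ha2, makes the hydroxyproline that keeps the triple helix stable. The lysyl hydroxylases Plod1, Plod2 and Plod3 modify lysines that later take part in crosslinks or carry sugars, and Serpinh1 (HSP47) is a chaperone that binds procollagen. Outside the cell, the copper enzymes Lox, Loxl1, Loxl2 and Loxl3 oxidise lysines of collagen and elastin so that fibres become crosslinked. Fibroblasts are a main source of these proteins, and several of the genes, P4ha1 and P4ha2 among them, are known targets of the hypoxia-inducible factors.

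None of the 8 members above background passed the test between ATG and FL cells. The prolyl hydroxylase subunits P4ha1 and P4ha2 had the largest differences, both lower in ATG cells, and for both the ATG arrays lay wholly below the FL arrays after normalization. The lysyl hydroxylases, Serpinh1, Lox and Loxl1 differed less and their arrays overlapped. Loxl3 was not above background on any array. Over the whole table, 0.638% of the 12227 tested probes passed at an adjusted p under 0.05 (limma, Benjamini-Hochberg over all tested probes), 58 lower (0.474%) and 20 higher (0.164%) in ATG cells. That count was 0 in limma when any array other than ATG replicate 3 was left out, with 1564 to 2017 probes at an unadjusted p under 0.05. At an unadjusted p under 0.05 stood 2 of the 8 members, P4ha1 and P4ha2, both lower in ATG cells, against 19% of all tested probes in either direction and 9.72% in that direction. Values below are log2 intensities after background correction and quantile normalization, fold changes are ATG over FL on that scale, and n = 3 arrays per group throughout.

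P4ha1 encodes an alpha subunit of prolyl 4-hydroxylase. Its log2 intensity was 5.61, 5.51 and 6.31 on the ATG arrays, against 6.70, 6.80 and 6.51 on the FL arrays. The groups did not overlap, and the gap between ATG replicate 3 and the lowest FL array was 0.20 log2 units. The means were 5.81 ± 0.43 (SD) in ATG cells and 6.67 ± 0.15 (SD) in FL cells, a log2 fold change of -0.86 ± 0.20 (SE), with a 95% confidence interval of -1.32 to -0.39. That is 1.81-fold lower in ATG cells, with an adjusted p of 0.0875 (limma) and a two-sided exact permutation p of 0.1, which is as low as a design of 3 and 3 arrays allows. The probe was dim. Its deposited intensity was 158, 164 and 206 on the ATG arrays and 230, 243 and 204 on the FL arrays, so that before normalization ATG replicate 3 stood just above FL replicate 3. It was above background on all 6 arrays, at a detection p of 0.0113 or less.

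The call for P4ha1 and the size of its difference depended on the processing and on a single array. Without ATG replicate 3 the log2 fold change was -1.10 and passed the test (adjusted p = 0.0296, limma). With no background correction it was -0.30 and passed as well (adjusted p = 0.0472, limma), in a fit where 6.32% of all probes passed.

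P4ha2 encodes the other alpha subunit measured. Its log2 intensity was 9.19, 9.47 and 9.63 on the ATG arrays, against 9.89, 9.78 and 9.95 on the FL arrays. All ATG arrays lay below all FL arrays, with ATG replicate 1 lowest, and the deposited intensities did not overlap either, at 607, 808 and 990 in ATG cells and 1116, 1049 and 1068 in FL cells. The log2 fold change was -0.44 ± 0.14 (SE), 1.36-fold lower in ATG cells, with an interval of -0.76 to -0.13, an adjusted p of 0.141 (limma) and an exact permutation p of 0.1. The arrays of the groups failed to overlap, with ATG lower, for 12.4% of all tested probes and for 2 of the 8 members. With no background correction P4ha2 passed too (log2 fold change -0.38, adjusted p = 0.0311, limma). The difference between the 2 subunits was not settled. The P4ha1 response minus the P4ha2 response was -0.41 log2 units (exact permutation p = 0.2), and without background correction it turned to 0.08.

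**Figure D1:**
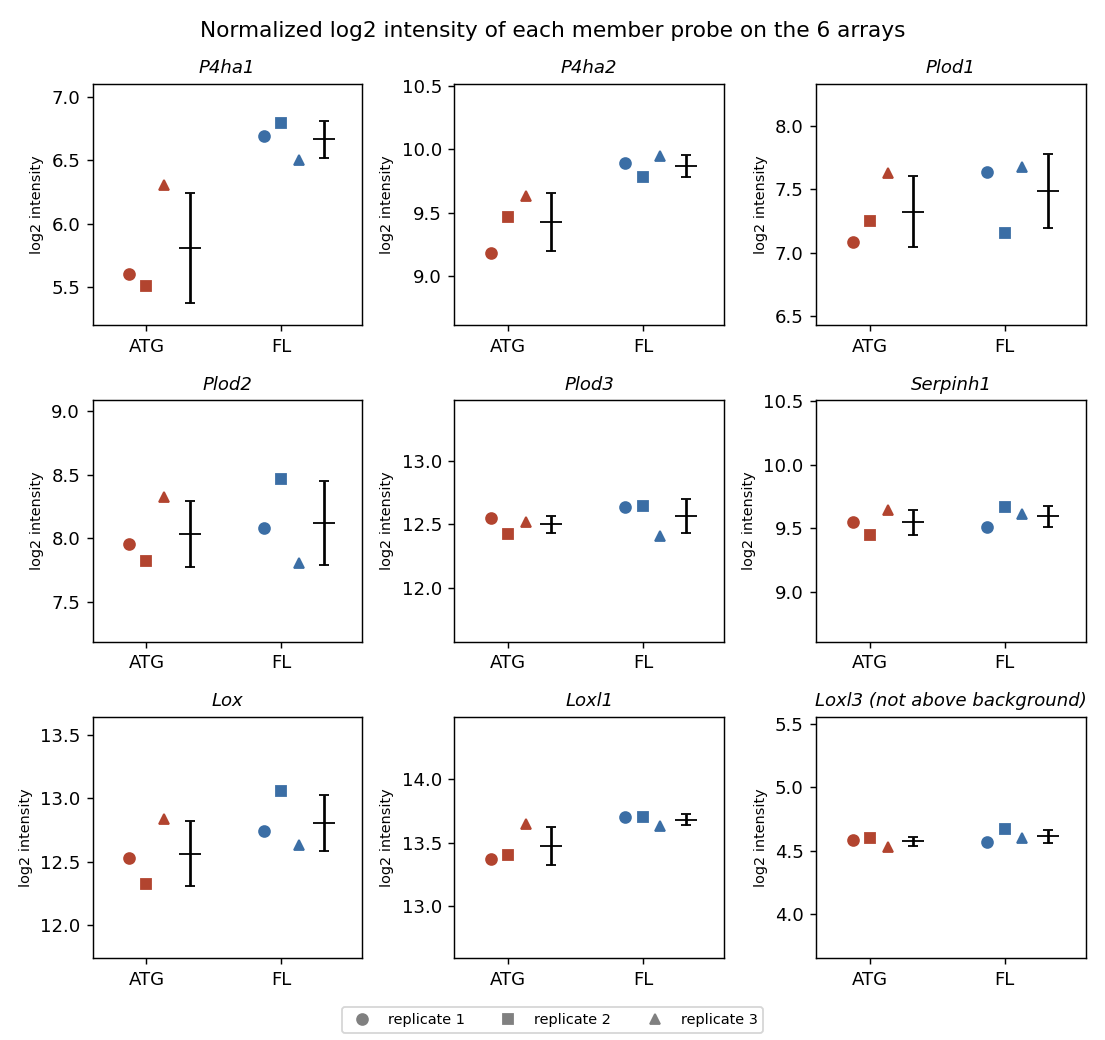
Log2 intensity (y axis, all panels spanning the same number of log2 units) of the 9 member probes on the ATG arrays (left, red) and the FL arrays (right, blue), with marker shapes for replicates 1 to 3 and a black bar for the mean ± SD of 3 arrays. For P4ha1 (5.51 to 6.31 against 6.51 to 6.80) and P4ha2 (9.19 to 9.63 against 9.78 to 9.95) the groups do not overlap, while for the other members they do.

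The promoters of P4ha1 and P4ha2 are shown because these members lay lower together and are known targets of hypoxia-inducible factors. Each run spans 250 bases before to 50 bases after the start of transcription (RefSeq, build GRCm38.p6, plus strand, chr10:59323046-59323345 for P4ha1 and chr11:54100674-54100973 for P4ha2). Capitals mark ACGTG, a form of the core of the hypoxia response element, searched on both strands. The other form, GCGTG, was not searched and is not marked.
P4ha1: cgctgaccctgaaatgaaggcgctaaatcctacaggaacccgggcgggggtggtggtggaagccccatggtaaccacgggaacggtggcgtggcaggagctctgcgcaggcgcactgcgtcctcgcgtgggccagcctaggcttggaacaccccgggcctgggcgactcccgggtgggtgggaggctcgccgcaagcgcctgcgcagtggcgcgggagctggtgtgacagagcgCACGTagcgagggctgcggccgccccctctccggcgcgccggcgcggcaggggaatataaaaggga
P4ha2: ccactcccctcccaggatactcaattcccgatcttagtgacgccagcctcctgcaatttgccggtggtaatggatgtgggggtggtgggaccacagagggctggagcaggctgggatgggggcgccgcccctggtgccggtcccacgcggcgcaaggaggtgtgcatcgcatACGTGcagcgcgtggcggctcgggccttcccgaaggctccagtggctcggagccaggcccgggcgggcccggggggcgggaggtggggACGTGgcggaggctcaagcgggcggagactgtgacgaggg
The P4ha1 window held 1 match, on the minus strand, whose leftmost base lay 16 bases before the start. The P4ha2 window held 2 matches on the plus strand, with leftmost bases 78 before and 10 after the start. The promoter table gave windows for 5 members, of which the Plod3 and Serpinh1 windows held 1 match each and the Plod1 window 0. Of all 32851 windows of that length, 19.6% held the letters. The matches are a description of the sequence, and the arrays carry no measurement of binding.

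The lysyl hydroxylases overlapped between the groups. Plod1, which hydroxylates lysines of the collagen helix, read 7.09, 7.25 and 7.63 on the ATG arrays and 7.64, 7.15 and 7.68 on the FL arrays, a log2 fold change of -0.17 ± 0.19 (SE; adjusted p = 0.672, limma). It was -0.05 without ATG replicate 1, and -0.34 and -0.32 without FL replicate 2 or ATG replicate 3. Plod2, which hydroxylates the telopeptide lysines at the chain ends, read 7.96, 7.82 and 8.32 on the ATG arrays and 8.08, 8.46 and 7.81 on the FL arrays. For Plod2 the highest array was FL replicate 2 and the lowest FL replicate 3, so the FL spread spanned all ATG arrays. Its log2 fold change of -0.08 ± 0.19 (SE; adjusted p = 0.854, limma) turned to 0.02 without ATG replicate 2 and to 0.09 without FL replicate 2. Plod3, which also adds sugars to hydroxylysine, read 12.55, 12.43 and 12.52 on the ATG arrays and 12.64, 12.64 and 12.41 on the FL arrays. The Plod3 log2 fold change was -0.06 ± 0.12 (SE), with an interval of -0.33 to 0.20 and an adjusted p of 0.812 (limma), and it ranged from -0.14 to -0.02 when single arrays were left out.

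Serpinh1, the collagen chaperone, had nearly equal means, 9.55 ± 0.10 in ATG cells and 9.59 ± 0.08 in FL cells (SD). The arrays read 9.55, 9.44 and 9.64 in ATG cells and 9.50, 9.67 and 9.61 in FL cells, in mixed order. The log2 fold change was -0.05 ± 0.11 (SE), with an interval of -0.30 to 0.21 (adjusted p = 0.859, limma), and the sign turned without ATG replicate 2, at 0.0033. Over all refits without 1 array it ranged from -0.10 to that value.

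Among the crosslinking enzymes, Lox read 12.53, 12.32 and 12.83 on the ATG arrays, against 12.74, 13.05 and 12.63 on the FL arrays. ATG replicate 3 stood above 2 of the 3 FL arrays, and the log2 fold change was -0.24 ± 0.17 (SE; interval -0.62 to 0.13, adjusted p = 0.462, limma). Without FL replicate 2 or ATG replicate 2 it was -0.12 and -0.13, and without ATG replicate 3 it was -0.39. The deposited intensity of Lox ranged from 5193 to 7750 in ATG cells and from 6561 to 8766 in FL cells. Loxl1, which acts mainly on elastin, read 13.37, 13.40 and 13.65 on the ATG arrays and 13.71, 13.71 and 13.63 on the FL arrays. Only ATG replicate 3 reached the FL range, just above the lowest FL array. The Loxl1 log2 fold change was -0.21 ± 0.12 (SE; interval -0.47 to 0.06, adjusted p = 0.380, limma). Loxl3 had deposited intensities of 133 to 137 in ATG cells and 133 to 142 in FL cells, with detection p from 0.252 to 0.525, so no fold is given for it.

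**Figure D2:**
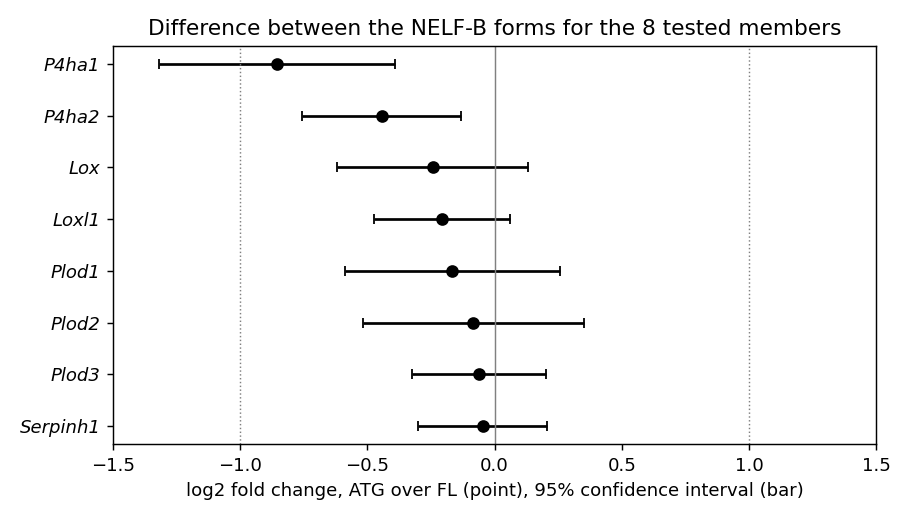
Log2 fold change, ATG over FL (x axis), of the 8 tested members, with points for the limma estimate and bars for the 95% confidence interval. The dotted lines mark a 2-fold difference either way. All 8 points lie below 0, and the intervals of P4ha1 (-1.32 to -0.39) and P4ha2 (-0.76 to -0.13) do not reach 0.

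The intervals limit how large a difference these arrays leave room for. For 7 of the 8 tested members the whole 95% interval lay within 2-fold either way, P4ha1 being the exception, as it did for 96.9% of all tested probes. For 4 members, Loxl1, Plod2, Plod3 and Serpinh1, it lay within 1.5-fold, against 66.8% of all tested probes. These bounds hold for the normalized signal, which understates folds of dim probes such as P4ha1. All 8 fold changes were below 0, against 48.3% of all tested probes, and their median was -0.19, against 0.01 over all tested probes. Under the 18 alternative settings 6 of the 8 stayed below 0, and Plod2 and Serpinh1 changed sign when single arrays were left out.

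Most members were low on ATG replicates 1 and 2. As the mean deviation of the 8 members from their own 6-array means, ATG replicates 1 and 2 stood at -0.24 and -0.26, and ATG replicate 3 at 0.10, within the FL arrays at 0.15, 0.19 and 0.06. Without ATG replicate 3 the median over the 8 was -0.30 and 4 members had an unadjusted p under 0.05, against 2655 of all 12227 probes (21.7%) in the same fit. Over all tested probes, ATG replicate 3 correlated with ATG replicates 1 and 2 at a Pearson r of 0.99034 and 0.99043. With FL replicates 1, 2 and 3 the r was 0.99085, 0.99171 and 0.98726. Over all tested probes ATG replicate 3 was thus slightly closer to FL replicates 1 and 2 than to the other ATG arrays, but not to FL replicate 3. Whether this bears on the member values was not tested. ATG replicate 3 was also the ATG array with the highest median intensity (152, against 143 and 148 on the other ATG arrays and 144 to 152 on the FL arrays). The part of signal level in this was not tested. Most members were highest on FL replicate 2: Lox, Plod2 and P4ha1 at 0.37, 0.39 and 0.56 above their means, and Plod3 and Serpinh1 at 0.11 and 0.10. Loxl1 was equally high on FL replicates 1 and 2, at 0.13, while P4ha2 and Plod1 were highest on FL replicate 3.

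**Figure D3:**
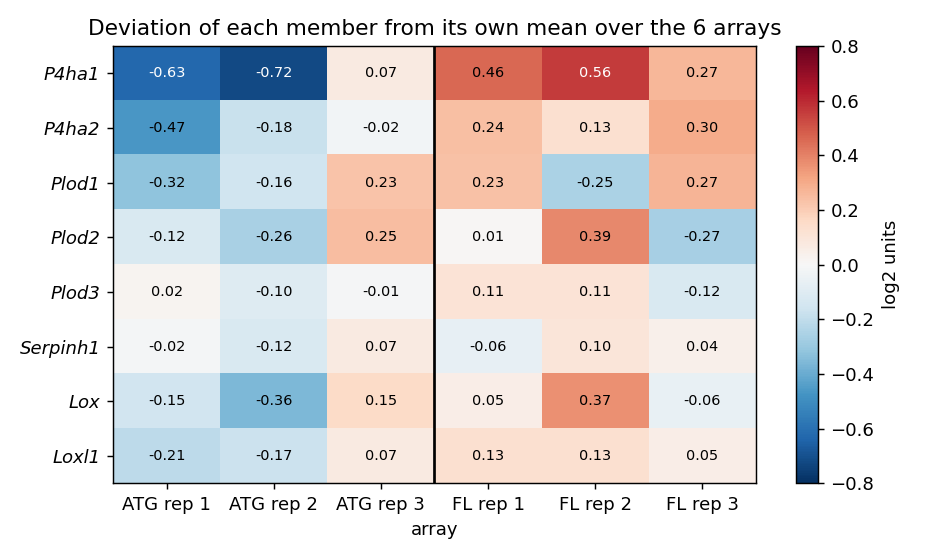
Deviation of each tested member (rows) from its own mean over the 6 arrays (columns, ATG left of the line, FL right of it), in log2 units, as colour and number. ATG replicates 1 and 2 are low for nearly all members, down to -0.72 for P4ha1, while ATG replicate 3 is above 0 for Lox, Loxl1, P4ha1, Plod1, Plod2 and Serpinh1.

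Responses were compared within enzyme families as the difference of 2 probes on each array, over the 5 pairs in which both genes were above background. No pair passed the test between the groups (exact permutation p from 0.2 to 0.9, adjusted p = 0.9 for each, with 0.1 the smallest p possible). Plod2 minus Plod1 responded by 0.08 log2 units, Plod2 minus Plod3 by -0.02, Plod1 minus Plod3 by -0.10 and Lox minus Loxl1 by -0.04. These values do not show that the family members respond alike, since the exact test used could not pass with 3 arrays per group.

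The partner genes of the same steps lay lower in ATG cells more often than higher, and none passed the test. Among 27 tested probes of partner enzymes and endoplasmic reticulum chaperones (23 genes), 0 passed, and the median log2 fold change was -0.16. At an unadjusted p under 0.05, 9 of them were lower and 1 higher, against 1188 (9.72%) and 1136 of all 12227 tested probes. The smallest p values were those of Fkbp7, a peptidyl-prolyl isomerase (-0.92 ± 0.18, adjusted p = 0.0603, limma), Tgm2, a transglutaminase (-0.53 ± 0.16), P3h3, a prolyl 3-hydroxylase family gene (-0.36 ± 0.11), and Crtap, which forms a complex with prolyl 3-hydroxylase (-0.31 ± 0.12 on each of 2 probes). Fkbp7 read 7.18, 7.05 and 7.43 on the ATG arrays, against 7.94, 7.95 and 8.53 on the FL arrays. When each gene was stood for by 1 probe, Fkbp7 was the only gene of the collagen pathway lists to pass, among 144 of 8990 genes.

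Of 14 tested probes (8 genes) for procollagen trimming and lysyl oxidase activation, 0 passed, with a median of -0.21. At an unadjusted p under 0.05, 7 were lower, against 9.72% of all tested probes. All 7 were probes of Bmp1, Adamts2 or Pcolce, and probes of 1 gene are not independent of each other. Bmp1, the protease that trims procollagen and also activates Lox, had 4 tested probes, of which 3 stood at -0.57 ± 0.14, -0.52 ± 0.12 and -0.39 ± 0.12 and a dim probe at 0.10 ± 0.32. Adamts2, which removes the amino-terminal propeptide, had 3 probes between -0.56 and -0.49, with adjusted p from 0.0799 to 0.203 (limma). Pcolce, an enhancer of Bmp1, stood at -0.33 ± 0.11, and Furin, a proprotein convertase, at 0.12 ± 0.11 on its brighter probe.

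Of 17 tested probes (13 genes) of collagen and elastin substrates, 0 passed and the median was -0.30. All 17 were collagen probes, since the elastin probe (Eln) was above background on no array and was not tested. At an unadjusted p under 0.05, 8 were lower, against 9.72% of all tested probes. The fibrillar collagens Col1a2 (-0.58 ± 0.12, adjusted p = 0.0667, limma), Col3a1 (-0.66 ± 0.16, adjusted p = 0.0864, and -0.34 ± 0.11 on its other probe) and Col1a1 (-0.46 ± 0.13) and the microfibril collagen Col6a2 (-0.49 ± 0.12) had the smallest p values. Col1a2 read 9.32, 9.66 and 9.61 on the ATG arrays, against 10.09, 10.12 and 10.12 on the FL arrays, with no overlap. On ATG replicate 3 the mean deviation of the substrates, unlike that of the 8 members, stayed below the FL arrays. The partner list did so too, at -0.05 against 0.06 to 0.10 on the FL arrays. So did the trimming and activation list, at -0.15 against 0.07 to 0.17. The substrate mean was -0.16, -0.20 and -0.07 on the ATG arrays and 0.12, 0.14 and 0.17 on the FL arrays. Single genes went otherwise. On ATG replicate 3 the members P4ha1 and P4ha2 lay below all FL arrays, while the substrates Col4a1 and Col5a2 lay above the lowest FL array. The difference between these lists and the members on that array was not tested. Without background correction 13 of the 58 probes in these 3 lists passed, all lower in ATG cells, in a fit where 6.32% of all probes passed.

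**Figure D4:**
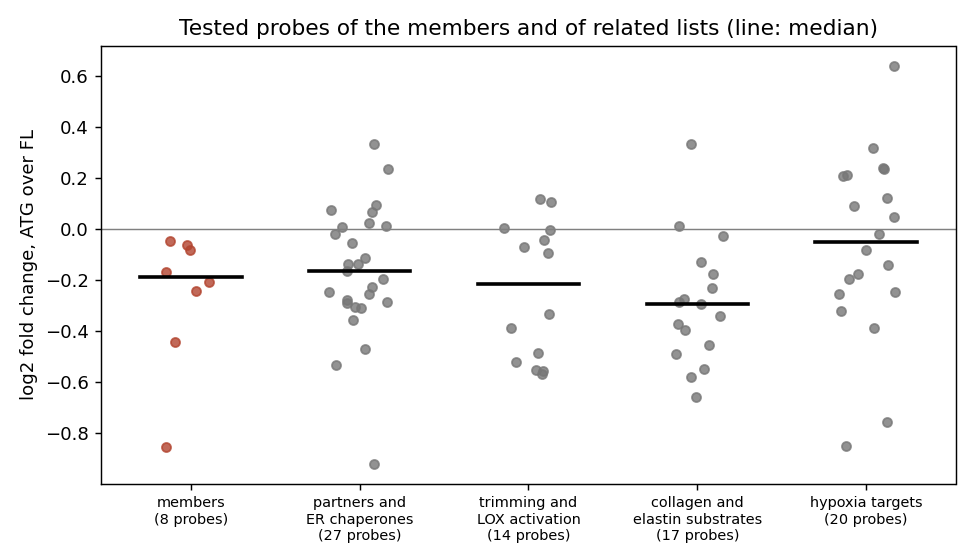
Log2 fold change, ATG over FL (y axis), of each tested probe of the members (red) and of the related lists (grey), with a line at the median of each. The medians are -0.19 for the members, -0.16 for partners, -0.21 for trimming, -0.30 for substrates and -0.05 for hypoxia targets.

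Hypoxia targets outside the members were divided. None of 20 tested probes passed, and the median was -0.05. At an unadjusted p under 0.05, 3 were lower and 2 higher, against 19% of all tested probes in either direction. Ndrg1, a stress-response gene, was lower in ATG cells on both probes (-0.85 ± 0.19 and -0.76 ± 0.16, adjusted p = 0.0719 and 0.0692, limma). The 1 tested probe of Car9, a carbonic anhydrase, stood at -0.39 ± 0.15. That probe was above background on 1 ATG array and all FL arrays, so it met the filter through the group where it was higher. Ldha, a lactate dehydrogenase (0.32 ± 0.12), and Egln1, a prolyl hydroxylase of the hypoxia-inducible factors, had higher values in ATG cells, without passing the test. Of the 3 Egln1 probes, 1 stood at 0.64 ± 0.20, and the groups overlapped for the others, at 0.21 ± 0.20 and 0.12 ± 0.21.

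The probes whose profile over the 6 arrays was most like that of P4ha1 were those of Fndc10, Zfp41, Phf12, Tmem59 and Pttg1ip (Pearson r from 0.994 to 0.999). For Lox they were those of Mbd1, Mfap3, Rictor, Zfp292 and Osmr (r from 0.983 to 0.997). These are the highest of the 12227 tested probes on 6 arrays that share their normalization and fall into 2 groups, and are given as a description.

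The label of the cells was checked against markers. Of 15 fibroblast marker probes 13 were above background on at least 3 arrays, and Thy1 and Lum were above it on none. The proteoglycan Dcn fell on 1 of its probes (-0.96 ± 0.15, adjusted p = 0.0355, limma), the other standing at -0.79 ± 0.15. Of the 13 tested fibroblast marker probes, 9 had values below 0 and 4 above, with a median of -0.22, and Vim (0.08 ± 0.14), S100a4 (0.12 ± 0.12) and 2 of the 4 Prrx1 probes (0.13 ± 0.12 and 0.08 ± 0.16) were those above 0. The summed deposited intensity of the fibroblast marker list, which shares Col1a1 and Col1a2 with the substrates, was 24043 to 31617 in ATG cells and 31740 to 37664 in FL cells. Its part in the member values was not tested, and fewer cells of a type and less RNA per cell cannot be told apart in these bulk samples. Of 46 probes for macrophage, endothelial, epithelial, pluripotent, skeletal muscle and cartilage or bone cells, 10 were above background on at least 3 arrays. The summed deposited intensity of the 46 was 7903 to 8037 in ATG cells and 7991 to 8317 in FL cells. This sum and that of the fibroblast list were neither background corrected nor normalized, so they include the background of each probe and the level of each array. Never above background were the macrophage genes Adgre1, Itgam and Lyz2, the endothelial genes Pecam1, Cdh5 and Tie1, the keratins Krt5, Krt14 and Krt18, Dppa5a, Zfp42, Myod1 and the bone genes Sp7, Ibsp and Bglap with Acan of cartilage. None of the 10 passed. Kdr, an endothelial receptor, stood at -0.44 ± 0.13 (adjusted p = 0.132, limma) and was above background on 1 ATG array, against all FL arrays. Des, a muscle filament gene, was above it on no ATG array and on all FL arrays, so no fold is given for it. Kdr and Des met the filter of 3 or more arrays through their FL arrays, so a lower ATG value was favoured in advance. From the cartilage and bone list, both Col2a1 probes (means of 9.19 and 9.95 on the log2 scale in ATG cells, 9.22 and 9.94 in FL cells) and Sox9 (7.53 in ATG cells, 7.52 in FL cells) were above background on all 6 arrays. Of the macrophage list, Cd68 was above background on all 6 arrays and 1 Csf1r probe on 2 ATG arrays and all FL arrays. From the pluripotent list, 1 Pou5f1 probe was above background on all 6 arrays. The other Csf1r and Pou5f1 probes were above it on no array. The tested probes of Cd68, Csf1r, Pou5f1, Cdh1 and Acta1 stood between -0.19 for Cdh1 and 0.24 for Acta1. Across the arrays 46.4% to 48.7% of probes were above background.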

How the data were processed

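The labels describe biotin-labelled total RNA of 6 MEF samples on Illumina bead arrays with 1 colour. The deposited table, non-normalized by its own header, lists for every probe and array a mean intensity and a detection p-value, per the file headers. GenomeStudio is named in the submitters' processing notes, with no version. The deposited series matrix holds linear intensities with a median of 143 in every column, which look quantile normalized. Each of its columns correlated best with the intensities of its own array, and it served only as an alternative. All value columns were used (0 left over). Without a chip or scan date in the sources used here, neither could be a block. No 2 arrays held identical values.

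Groups and replicate numbers came from the sample titles. The background was corrected with neqc of limma 3.58.1 in R 4.3.3 (normexp, negative controls inferred from the detection p-values, offset 16), followed by quantile normalization and log2, which understates folds of dim probes. The 12227 probes above background (detection p under 0.05) on 3 or more arrays were tested with lmFit and eBayes between the groups, with p-values adjusted after Benjamini and Hochberg and a threshold of 0.05. Every probe was kept, because the members were given as all probes of their symbols. Of 25697 probes, 24202 were named by RefSeq accession (GRCm38.p6), 536 by symbol, 297 by synonym and 662 kept the file's symbol.

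On 20 simulated data sets of 12227 probes with 200 changed, the fit recovered 23.9% of 1.5-fold, 83.9% of 2-fold and 98.7% of 3-fold changes, and 5.51% of its calls were false. These rates describe that setting. In the data 19% of tested probes had an unadjusted p under 0.05 (limma), so the rates may not carry over. The members and lists were chosen with earlier results of these data known. Named are all members, list genes past the test or otherwise up to 4 genes per list by p, and the 5 genes most like P4ha1 and Lox in profile; the marker genes never above background and the fibroblast markers with values above 0 were added after their values were seen. The alternatives changed the background correction, normalization, source table, filter, probes per gene, variance model, array weights, replicate block and arrays used. Figures were drawn with matplotlib 3.10.9.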

Additional observations from a re-analysis of the deposited data

How the results depend on the processing

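The median log2 fold change of the tested members stayed negative, from -0.30 to -0.12 over 18 alternatives. With no background correction, normexp with an offset of 50, the series matrix values and a variance trend with robust eBayes, 2 members passed (P4ha1 and P4ha2), among 773, 727, 850 and 839 probes of the whole table (364, 330, 409 and 393 higher and 409, 397, 441 and 446 lower in ATG cells). The other collagen lists then had 13, 12, 14 and 15 probes past the test. Under these 4 settings 51.9% to 54.6% of the calls were lower, against 74.4% of the 78. With array weights 1 member, P4ha1, and 4 list probes (Adamts2, Bmp1, Col1a2 and Fkbp7) passed, among 301 probes (122 higher, 179 lower). Detection on all 6 arrays gave 251 probes (96 higher, 155 lower) and detection p under 0.01 gave 210 (77 higher, 133 lower), each with 0 members and 2 list probes, Col1a2 and Fkbp7. With 1 probe per gene 144 genes passed (46 higher, 98 lower), 1 of them in the lists. No filter gave 14 probes (3 higher, 11 lower), and median scaling 11 higher. The causes were not tested. Leaving out 1 array gave 0 to 106 probes (0 to 28 higher, 0 to 78 lower), with 0 for every array but ATG replicate 3, where 1564 to 2017 probes had an unadjusted p under 0.05 (limma), and 0 to 1 members. The replicate block gave 32 probes (4 higher, 28 lower) and 0 members (P4ha1 adjusted p = 0.137). Same-numbered arrays had deviations correlated at 0.03, -0.14 and -0.12, so the numbers were not taken as pairs.

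Between enzymes, the P4ha1 minus P4ha2 response turned to 0.080 with no background correction and 0.064 with the series matrix, and Plod2 minus Plod3 to 0.0043 and 0.0045. Leaving out 1 array, these ranged from -0.55 to -0.25 and from -0.15 to 0.12, Plod2 minus Plod1 from -0.16 to 0.42, Plod1 minus Plod3 from -0.31 to 0.062 and Lox minus Loxl1 from -0.11 to 0.072. Single members ranged over the same refits from -0.24 to 0.089 for Plod2 and from -0.10 to 0.0033 for Serpinh1, the only members that changed sign. The 3 arrays per group and the dim P4ha1 and Loxl3 probes limit the precision.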
